A study of Mus musculus with 6 samples.

Results

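Id1, Id2, Id3 and Id4, the 4 members of the inhibitor of DNA binding family, were followed through 6 droplet single-cell RNA-seq libraries of the mouse uterine tube (oviduct). They were taken by symbol from the 50559 genes of the matrices, in 5 cell classes: non-ciliated epithelium, ciliated epithelium, fibroblasts, smooth muscle and blood endothelium. The 4 genes were selected on their measured levels in these classes and on the difference of these levels between distal and proximal tube. Their regional values in these classes are therefore a description and carry no p-value. The 3 distal libraries (distal 1, 2 and 3) and the 3 proximal libraries (proximal 2, 3 and 4, numbered as in their titles) came from C57BL6 adult females in estrus, with no genetic change or treatment named. Tubes were cut into the 2 regions, the tissue of a region was pooled over a group of mice, digested with enzymes at 37°C and depleted of dead cells. Each library is thus a pool, and nothing in the labels says how many mice it holds.

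Id proteins carry a helix-loop-helix dimerization domain but no basic region for binding DNA. They pair with E proteins such as Tcf3, Tcf4 and Tcf12 and keep them from activating genes with tissue-specific partners. Bone morphogenetic proteins (BMPs), acting through Smad transcription factors, are well-known inducers of Id1, Id2 and Id3. Id2 is also known for its role in natural killer (NK) and other innate lymphoid cells, and Id1 and Id3 for theirs in growing blood vessels.

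The stretch in which the 4 coding sequences were most alike is shown to make visible what the family shares. It holds 60 bases, lies in the part that encodes the helix-loop-helix domain, and was found by comparing the coding sequences of the transcripts Id1-201, Id2-201, Id3-201 and Id4-201 (GENCODE vM21, GRCm38) without gaps. Capitals mark the 42 bases that all 4 genes share.
Id1: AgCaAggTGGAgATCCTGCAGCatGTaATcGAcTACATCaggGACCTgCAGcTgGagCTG
Id2: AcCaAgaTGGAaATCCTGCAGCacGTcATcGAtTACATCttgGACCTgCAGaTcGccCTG
Id3: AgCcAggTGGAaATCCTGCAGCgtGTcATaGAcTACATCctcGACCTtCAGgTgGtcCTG
Id4: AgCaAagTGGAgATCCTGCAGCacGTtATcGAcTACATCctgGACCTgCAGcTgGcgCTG
Between pairs, identity in this stretch ran from 78.3% (Id2 and Id3) to 90% (Id1 and Id4). The coding sequences differ in length, with 444 bases in Id1, 402 in Id2, 357 in Id3 and 483 in Id4.

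Promoter windows of 250 bases before the start are shown for Id2, Id3 and Id4 because Id2 and Id3 differed between the regions in the same way as each other, higher proximally in non-ciliated epithelium and lower in fibroblasts, while Id4 overlapped in both classes. They are from RefSeq (GRCm38.p6; the deposited matrices were made on mm39), at chr12:25096093-25096342 on the minus strand for Id2, chr4:136143572-136143821 on the plus strand for Id3 and chr13:48260866-48261115 on the plus strand for Id4. Capitals mark the motifs CCAAT and GGCGCC, searched on both strands.
Id2: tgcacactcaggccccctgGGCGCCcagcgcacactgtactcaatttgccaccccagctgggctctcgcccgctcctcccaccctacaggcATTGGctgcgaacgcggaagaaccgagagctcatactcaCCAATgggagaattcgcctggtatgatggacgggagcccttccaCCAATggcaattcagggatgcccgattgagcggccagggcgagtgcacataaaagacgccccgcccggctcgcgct
Id3: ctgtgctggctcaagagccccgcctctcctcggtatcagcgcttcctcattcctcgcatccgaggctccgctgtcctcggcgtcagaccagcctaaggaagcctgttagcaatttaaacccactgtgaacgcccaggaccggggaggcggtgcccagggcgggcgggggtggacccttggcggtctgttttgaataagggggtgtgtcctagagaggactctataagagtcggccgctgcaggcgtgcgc
Id4: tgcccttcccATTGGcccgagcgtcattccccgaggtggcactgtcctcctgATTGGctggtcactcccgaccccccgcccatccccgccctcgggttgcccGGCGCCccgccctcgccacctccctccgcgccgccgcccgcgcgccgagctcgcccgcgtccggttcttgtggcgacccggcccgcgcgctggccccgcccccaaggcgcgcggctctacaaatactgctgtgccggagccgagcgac
CCAAT, or ATTGG on the other strand, occurs 3 times in the Id2 window, 2 times in that of Id4 and not in that of Id3. Of all 32851 RefSeq windows of this length, 33.9% hold it. GGCGCC occurs once each in Id2 and Id4, against 9.59% of all windows. Neither CACGTG (6.02% of all windows) nor TGACGTCA (1.55%) occurs in any of the 3. The Id4 window is the richest of them in G and C, at 75.6% against 62.8% in both others and a median of 52.4% over all windows.

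Cell classes were named from clusters of 18466 cells by marker genes. Depth differed widely between the regions: proximal libraries held 325 to 1133 cells and distal libraries 4115 to 6652, and total unique molecular identifiers (UMIs, single counted transcripts) ran from 426707 in proximal 3 to 32488145 in distal 1. At most 1.85% of the smaller library's barcodes were shared between any 2 libraries. Levels are given as CPM, the UMIs of the gene relative to all UMIs of a class in a library, at the usual scale of that unit, and a library entered a class only with at least 10 cells. This left out proximal 3 for ciliated cells and proximal 2 for smooth muscle and blood endothelium. A cluster led by Slc6a2 and Msln, with 955 of its 957 cells distal, scored nearest to non-ciliated epithelium. It was given no name and left out because mesothelium had more markers among its 10 leading genes.

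Within the distal tube, the 4 genes had different cell classes at their peak. Id1 was highest in blood endothelium, with 658, 325 and 516 CPM in distal 1, 2 and 3. Lymphatic endothelium followed at 336 CPM ± 33.7 (SD, n = 3), overlapping it, and mesothelium and fibroblasts came next at means of 183 and 114 CPM. Distal epithelium lay far below, at 18.4 CPM ± 9.07 in non-ciliated and 24.3 CPM ± 4.48 in ciliated cells (SD, n = 3 each), and these overlapped each other.

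Id2 was highest in granulosa or luteal cells (942 CPM ± 171, SD, n = 3), which are ovarian cell types, and in T and NK cells (798 CPM ± 201, SD, n = 3), with overlapping libraries. Myeloid cells at a mean of 461 CPM overlapped fibroblasts at 335 CPM. Among the lymphocytes, the cluster led by Gzma, Ccl5 and Nkg7, genes of cytotoxic lymphocytes, held Id2 at 1132 CPM over its distal cells and 1016 CPM over its proximal cells.

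Id3 separated the epithelium from every other class compared. Blood endothelium (1096 CPM ± 163) and fibroblasts (913 CPM ± 187) were highest and overlapped (SD, n = 3 each). Non-ciliated and ciliated epithelium were lowest, at 16.9 CPM ± 1.68 and 14.9 CPM ± 2.82 (SD, n = 3 each), and overlapped each other. Id4 had its peak in the contractile cells: smooth muscle at 310 CPM ± 34.1 and pericytes at 263 CPM ± 123 (SD, n = 3 each), which overlapped. Non-ciliated epithelium came next at 59.1 CPM and overlapped fibroblasts at 49.4 CPM.

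**Figure D1:**
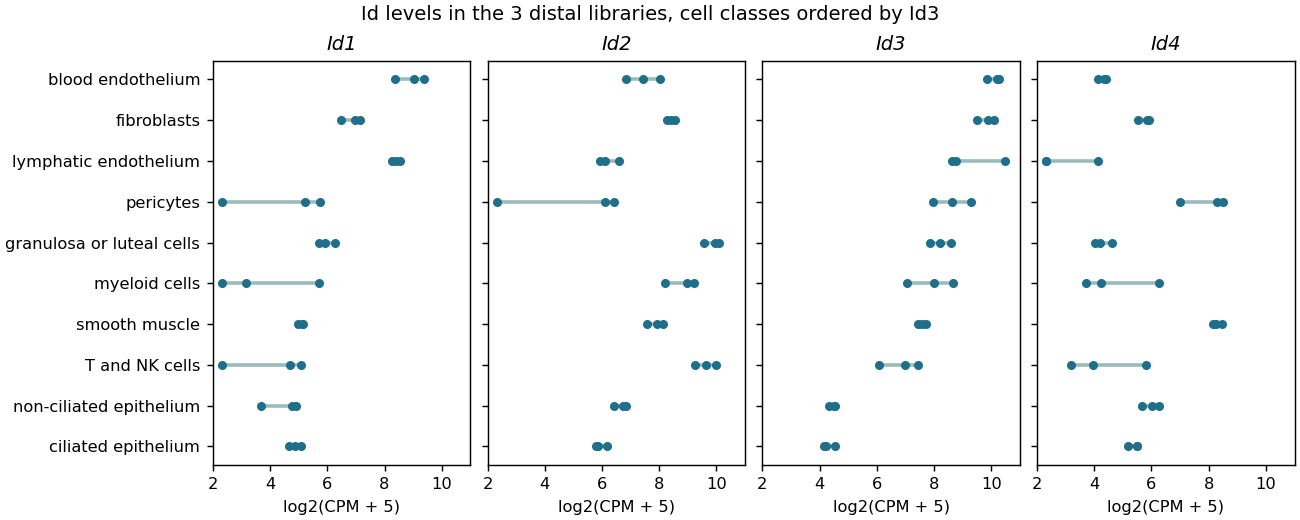
Levels of the 4 Id genes in the distal tube, as log2(CPM + 5) on the x axis, for the cell classes with at least 10 cells in all 3 distal libraries (y axis, ordered by Id3). Points are libraries and bars their range: Id1 and Id3 are highest in blood endothelium, Id2 in granulosa or luteal cells, Id4 in smooth muscle.

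Across the 51 sums of a class in a library, the 4 genes did not share 1 pattern. The Pearson correlation of log2(CPM + 5) was 0.41 between Id1 and Id3 and between -0.10 and 0.05 for the other pairs. The 51 sums share 6 libraries and differ in depth, so these values only describe the pattern. Of 8517 genes with a mean of at least 20 CPM, those most like Id3 were Col4a1 (r = 0.84), Igfbp7 (0.84), Cavin3 (0.83), Pam (0.80) and Nid1 (0.80), of which Col4a1 and Nid1 encode basement membrane proteins. For Id1 they were Ptpn14 (0.81), Nectin2 (0.77), Nckap1 (0.73), Git1 (0.73) and Nfib (0.72). For Id4 they were Cacnb2 (0.83), Mapk8ip1 (0.80), Ano1 (0.77), Adgrl1 (0.76) and Cryab (0.76). For Id2 they were Rgs2 (0.73), AU020206 (0.66), Rplp2 (0.64), Skil (0.64) and Wapl (0.62).

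Id1, Id2 and Id3 were higher in proximal than in distal non-ciliated epithelium, the class that holds the secretory cells of the tube. Id1 stood at 22.4, 24.7 and 8.0 CPM in distal 1, 2 and 3 and at 229.7, 317.7 and 378.5 CPM in proximal 2, 3 and 4. Id2 was 102, 109 and 80.8 CPM distally and 504, 411 and 409 CPM proximally. Id3 was 18.2, 17.5 and 15.05 CPM distally and 72.4, 89.0 and 64.4 CPM proximally. For each of these 3 genes every proximal library lay above every distal one. Id4, at 59.7, 71.5 and 45.9 CPM distally and 94.6, 63.5 and 58.2 CPM proximally, overlapped between the regions.

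The fitted log2 fold change, proximal over distal, was 3.84 ± 0.54 (SE) for Id1, 2.02 ± 0.43 for Id2, 1.96 ± 0.36 for Id3 and 0.16 ± 0.42 for Id4 (edgeR, 3 libraries against 3). The first 3 passed the threshold used for all genes, an adjusted p of 0.05, which 2.83% of the 12294 genes tested did in either direction and 2.26% by rising. All proximal libraries lay above all distal ones for 12.5% of these genes. These shares are given beside the count without reading anything from them, since the contrast chose the genes.

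**Figure D2:**
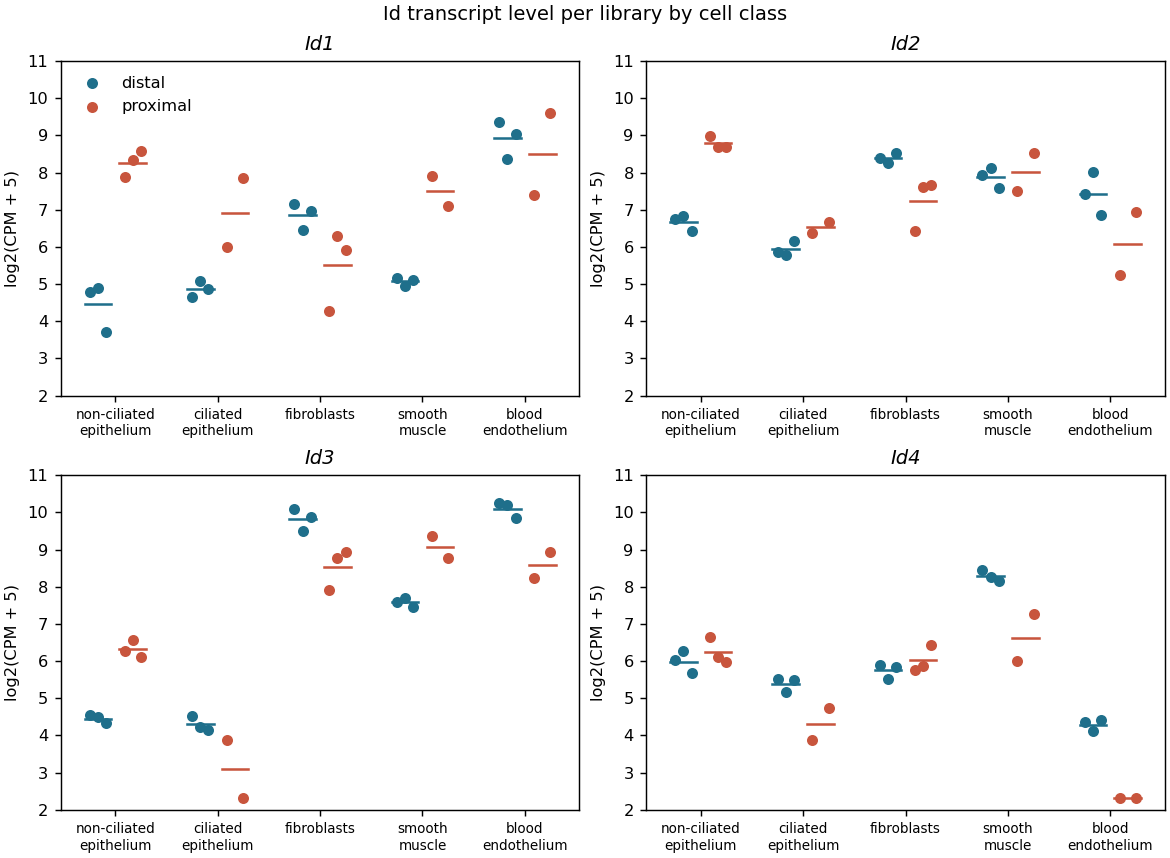
Level of each Id gene per library, as log2(CPM + 5) on the y axis, in 5 cell classes; points are distal (blue) and proximal (red) libraries and lines their means. Id1, Id2 and Id3 of the 3 proximal libraries sit above the distal ones in non-ciliated epithelium and below them in fibroblasts, and Id4 overlaps in both.

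The proximal signal of these genes came from 2 clusters that the distal libraries hardly hold. Cluster 23, led by Serpina1e, Cwh43 and Taco1, had 85 cells of proximal 3 and 84 of proximal 4 among its 179, and cluster 27, led by 9530014B07Rik, Serpina1e, Fxyd4 and Crabp2, had 86 cells of proximal 2 among its 101. Together they held 267 of the 529 proximal cells of the class (50.5%), with 93.5% in proximal 3, 62.2% in proximal 4 and 30.6% in proximal 2. They carried 95.7% of the proximal Id1 UMIs, 89.8% of Id2, 97.4% of Id3 and 60.3% of Id4. Cells of cluster 23 held a median of 3.37 times, and those of cluster 27 0.622 times, the median UMIs of their library. The share of cells is therefore not the clusters' share of all UMIs, and the 60.3% of Id4 cannot be read as an enrichment. Since each of these clusters is drawn mostly from 1 or 2 libraries, a cell state and a property of those libraries cannot be told apart.

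Over their proximal cells, cluster 23 had 418 CPM of Id1, 468 of Id2 and 81.8 of Id3, and cluster 27 had 623 CPM of Id1, 1241 of Id2 and 209 of Id3. In the 4 clusters that hold most distal cells (5, 6, 12 and 15), distal Id1 ran from 14.4 to 53.7 CPM. Cluster 5, led by S100b and Upk1a, was the shared cluster with the most proximal cells, and there Id1 was 14.4 CPM over distal and 25.7 CPM over proximal cells, the latter resting on 10 UMIs. The unnamed Slc6a2 and Msln cluster had 59.6 CPM of Id1 and 69.3 CPM of Id2 over its distal cells.

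With those clusters set aside, Id1 and Id2 were closer between the regions and Id3 changed sign. Within cluster 5 the log2 fold change was 0.98 ± 0.77 (SE) for Id1 and 0.47 ± 0.41 for Id2. Leaving out clusters 23 and 27, an alternative chosen after the values were seen, gave 0.82 ± 0.59 for Id1 and 0.09 ± 0.49 for Id2, while Id3 went from 1.96 to -1.76 ± 0.71, on the 3 of its 115 proximal UMIs that lie outside the 2 clusters. Proximal 3 had too few cells to enter either fit, so each set 3 distal against 2 proximal libraries. In cluster 5 proximal 4 had 15 cells. With the Slc6a2 and Msln cluster added to the class, Id1 was at 3.15 ± 0.39. The count of Id genes past the threshold, 3, fell to 0 when distal 1, 2 or 3 was left out. Without proximal 3 it fell to 1. Few genes of any kind were called in these 4 fits: 8, 5, 6 and 50, or 0.0886%, 0.0552%, 0.0666% and 0.358% of those tested. The Id1 value stayed positive in all 18 alternatives, from 0.82 to 4.23.

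**Figure D3:**
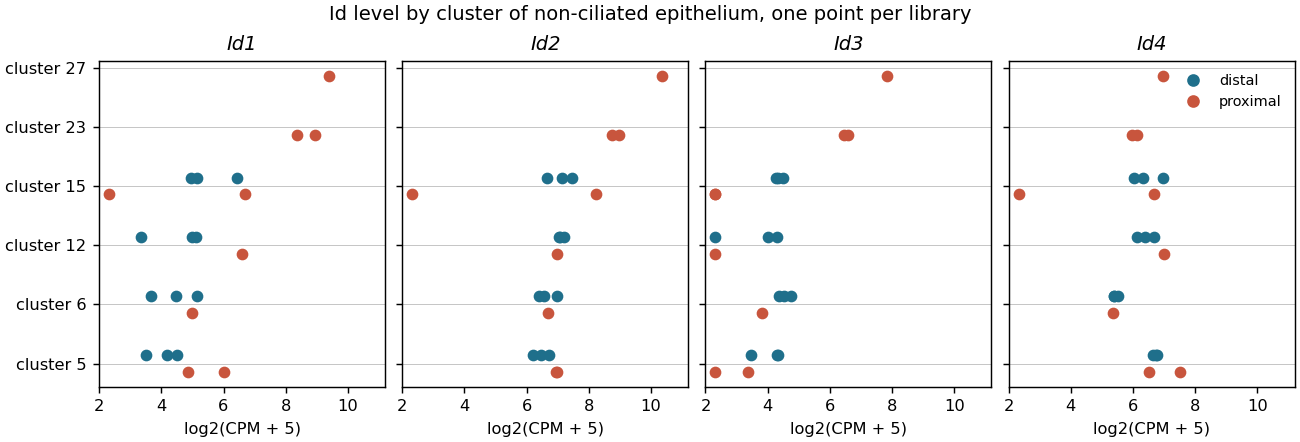
Id levels, as log2(CPM + 5) on the x axis, in the clusters of non-ciliated epithelium (y axis); points are libraries with at least 10 cells in the cluster, distal in blue and proximal in red. Clusters 23 and 27 have proximal points only, and these are the highest points for Id1, Id2 and Id3.

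Markers of blood endothelium, the class with the most Id1, were low in non-ciliated epithelium. The 8 of them summed to 6.78 to 13.1 CPM in distal libraries and to 2.78, 59.3 and 36.8 CPM in proximal 2, 3 and 4, so that proximal 3 and 4 lay above the distal libraries and proximal 2 below. In proximal 2, where Id1 was 229.7 CPM, 6 of the 8 (Cdh5, Kdr, Flt1, Emcn, Plvap and Vwf) were at 0. There 3 UMIs would already be 4.18 CPM, so a marker at 0 cannot be read as absent. The 8 fibroblast markers summed to 84.9 to 179 CPM and 109 to 181 CPM. Pericyte markers summed to 12.8 to 21.9 CPM distally and to 11.1, 101.7 and 72.0 CPM in proximal 2, 3 and 4. Of the 7 markers, Notch3 alone made up the sums of proximal 2 and 3, and 4 were above 0 in proximal 4. In proximal 3, 3 UMIs would be 12.7 CPM, so the other markers cannot be read as absent. Lists lower in every proximal library were erythroid markers (4555 to 8427 CPM distally, 123 to 3474 CPM proximally), ciliated markers (183 to 213 against 72.0 to 114 CPM) and smooth muscle markers (34.7 to 62.4 against 4.24 to 24.5 CPM). Immediate early and dissociation genes, which cells switch on during digestion, summed to 8775 to 17560 CPM in distal libraries and to 3626, 17895 and 20086 CPM in proximal 2, 3 and 4. Proximal 2 had the lowest sum of the 6. Among the proximal libraries it was the lowest for Id1, at 229.7 CPM, and the highest for Id2, at 504 CPM. The part of these genes and markers in the Id values was not tested. The class's own 11 markers summed to 20915 to 28464 CPM distally and to 20998, 9422 and 11532 CPM in proximal 2, 3 and 4.

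In ciliated epithelium, the multiciliated cells that move the tubal fluid, Id1 was also higher proximally, on few cells. It was 20.1, 29.0 and 24.0 CPM in distal 1, 2 and 3, 58.6 CPM in proximal 2 (24 cells, 6 UMIs) and 227 CPM in proximal 4 (29 cells, 21 UMIs). Id2 was 53.2, 50.4 and 66.4 CPM distally and 78.2 and 97.5 CPM proximally, so that for both genes the regions did not overlap, as for 42.3% of all genes tested in this class. The log2 fold change was 2.37 ± 0.48 (SE) for Id1, or 1.26 ± 0.59 without proximal 4, and 0.49 ± 0.39 for Id2. The class's own markers summed to 9440 to 12532 CPM distally and to 6899 and 5393 CPM proximally, and their part in the Id values was not tested. None of the 4 genes passed the threshold, which 0.0908% of the 13209 genes tested did (12 genes; 2022 had an unadjusted p under 0.05). DESeq2 called 481 genes, among them 1 Id gene.

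Id3 and Id4 were too shallow in proximal ciliated cells to compare. Id3 had 1 UMI there against 151 distally, a pooled ratio of 0.359 with a 95% counting interval of 0.00902 to 2.03. Id4 had 3 against 404, a ratio of 0.402 with an interval of 0.0826 to 1.18. Both intervals cover counting error only and include 1. Of the 5 clusters of ciliated cells, cluster 13 (led by Wfdc12, Gm5152 and Mmp8) held 20 of the 27 proximal Id1 UMIs, all 20 in 4 cells of proximal 4, at 226 CPM against 7.40 CPM over its distal cells.

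Fibroblasts, the connective tissue cells of the tube wall, went the other way. Id3 was 1088, 716 and 937 CPM in distal 1, 2 and 3 and 237, 434 and 480 CPM in proximal 2, 3 and 4. Id2 was 334, 304 and 367 CPM distally and 81.6, 190 and 199 CPM proximally. Id1 was 138, 83.3 and 120 CPM distally and 14.3, 74.0 and 56.0 CPM proximally. All 3 genes were lower in every proximal library than in any distal one, with proximal 2 the lowest for each. Id4 was 54.7, 40.8 and 52.8 CPM distally and 49.5, 52.9 and 81.1 CPM proximally, and overlapped.

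The log2 fold change was -1.48 ± 0.33 (SE) for Id3, -1.36 ± 0.32 for Id2, -1.80 ± 0.44 for Id1 and 0.20 ± 0.26 for Id4. Id2 and Id3 passed the threshold, against 2.8% of the 13738 genes tested in either direction and 0.844% that fell, while all proximal libraries lay below all distal ones for 10.9% of genes. With library totals as the only scaling, no Id gene passed and the values were -1.27 for Id3 and -1.16 for Id2. None passed either without distal 1, distal 2, distal 3 or proximal 3, where 0.336%, 1.28%, 0.757% and 0.513% of all genes tested did. Without proximal 2, 3 Id genes passed, as did 13.0% of all genes tested.

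The fibroblast clusters also differed in makeup. Cluster 16, led by Sgcz, Apod and Lamc3, had 263 of its 280 cells from proximal libraries and had low levels, at 25.2 CPM of Id1, 48.3 of Id2 and 145 of Id3 over those cells. Clusters 1 and 3, with 41 and 27 proximal cells against 2180 and 2009 distal ones, had distal Id3 at 876 and 1124 CPM. In cluster 2, led by Inmt and Tcf21 and the shared cluster with the most proximal cells, Id3 was 941 CPM over distal and 565 CPM over proximal cells. There the log2 fold change was -0.76 ± 0.36 (SE) for Id3, -0.62 ± 0.48 for Id1 and -0.24 ± 0.31 for Id2, and none passed the threshold. Cluster 11, led by Ly6h and Prss23, had 332 CPM of Id3 over distal and 155 CPM over proximal cells. Summed immediate early genes were 19615 to 24149 CPM in distal fibroblasts and 11316, 21215 and 20235 CPM in proximal 2, 3 and 4, so the library lowest in Id1, Id2 and Id3 was also lowest in these. Pericyte markers summed to 148 to 167 CPM distally and 68.8 to 97.9 CPM proximally, and the 8 fibroblast markers to 19637 to 20648 and 24420 to 28974 CPM. The part of these in the Id values was not tested.

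**Figure D4:**
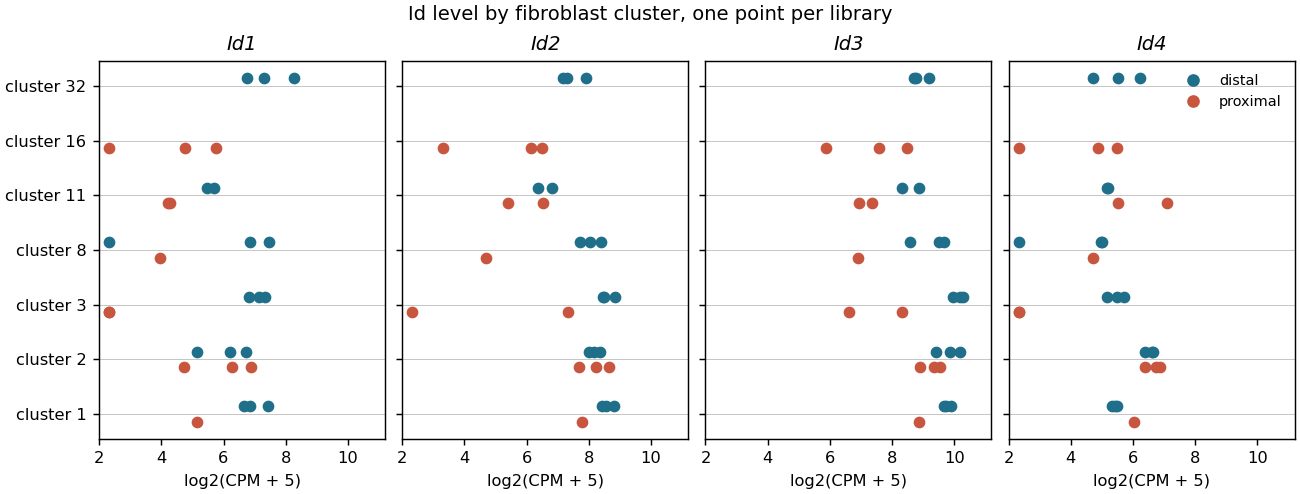
Id levels, as log2(CPM + 5) on the x axis, in the fibroblast clusters (y axis); points are libraries with at least 10 cells in the cluster, distal in blue and proximal in red. Cluster 16 has proximal points only and low Id1 and Id2, while in cluster 2 the libraries of the regions overlap for all 4 genes.

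The smooth muscle class, whose distal and proximal cells lay mostly in different clusters, had 3 different outcomes in its 3 distal and 2 proximal libraries. Id4 was 348, 302 and 281 CPM in distal 1, 2 and 3, and 58.9 CPM (1 UMI) in proximal 3 and 148 CPM (9 UMIs) in proximal 4. Id1 was 30.7, 26.1 and 29.3 CPM distally and 236 CPM (4 UMIs) and 132 CPM (8 UMIs) proximally. Id3 was 187, 204 and 169 CPM distally and 648 and 429 CPM proximally. The regions did not overlap for these 3 genes, with Id1 and Id3 higher and Id4 lower proximally, and they did for Id2.

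The log2 fold change was -1.72 ± 0.51 (SE) for Id4, 2.01 ± 0.57 for Id1, 0.95 ± 0.38 for Id3 and -0.01 ± 0.42 for Id2. Id1 and Id4 passed the threshold, as did 13.0% of the 9415 genes tested (4.73% rose and 8.25% fell). The regions did not overlap for 55.7% of them, and the median log2 fold change of all genes was -0.50. With library totals only, Id1 and Id3 passed and Id4, at -1.30, did not. None passed without proximal 3 or without proximal 4. Without proximal 4, the value of Id4 was -3.54 ± 0.85 and that of Id2 -1.55 ± 0.72.

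Other signals separated the regions in smooth muscle as well. The 7 pericyte markers summed to 469, 269 and 352 CPM in distal 1, 2 and 3 and to 883 and 923 CPM in proximal 3 and 4. Kcnj8 and Abcc9 were at 0 in both proximal libraries, but 3 UMIs over these would already be 38.6 CPM. Pericytes were high in Id3 and Id4. Summed immediate early genes were 12380 to 19159 CPM distally and 34034 and 33655 CPM proximally. The part of either in the Id values was not tested. Most distal muscle cells lay in cluster 4, led by Actg2, Cnn1 and Myh11, with 348 CPM of Id4 and 156 of Id3 over 1683 distal cells. Cluster 20, led by Ctnna3 and Pln, held 26 of the 29 muscle cells of proximal 3 and 37 of the 45 of proximal 4. Over its 162 distal cells Id4 was 67.2 CPM and Id3 628 CPM, and over its 63 proximal cells Id4 was 144 CPM and Id3 361 CPM. Within this cluster Id3 was thus lower and Id4 higher proximally, each opposite to the direction of the class. The class contrast set mostly cluster 4 cells distally against mostly cluster 20 cells proximally. The part of this makeup in the Id values was not tested.

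In blood endothelium, Id3 was 1216, 1162 and 910 CPM in distal 1, 2 and 3 and 294 CPM (9 UMIs) and 481 CPM (45 UMIs) in proximal 3 and 4. The proximal libraries lay below all distal ones, as they did for 25.0% of all genes tested. Its log2 fold change was -1.49 ± 0.31 (SE), and it passed the threshold, as 8.64% of the 4027 genes tested did (4.87% fell). It did not pass without distal 1 or without proximal 3. Pericyte markers summed to 194 to 696 CPM in distal blood endothelium and to 0 and 21.4 CPM in proximal 3 and 4, and immediate early genes to 15940 to 25280 CPM and to 32168 and 29990 CPM. Their part in the Id3 values was not tested. Id1 was 163 CPM in proximal 3 and 780 CPM in proximal 4, on either side of the distal 325 to 658 CPM. Id2 overlapped as well, at 32.7 and 118 CPM against 111 to 256 CPM. Id4 had 0 UMIs in both proximal libraries, but 3 UMIs there would already be 24.2 CPM, above the distal 15.3 CPM, so no difference was detectable. In the cluster led by Selp, Sele and Vwf, which held 27 of the 33 cells of proximal 3 and 50 of the 57 of proximal 4, Id3 was 873 CPM over its distal and 423 CPM over its proximal cells.

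**Figure D5:**
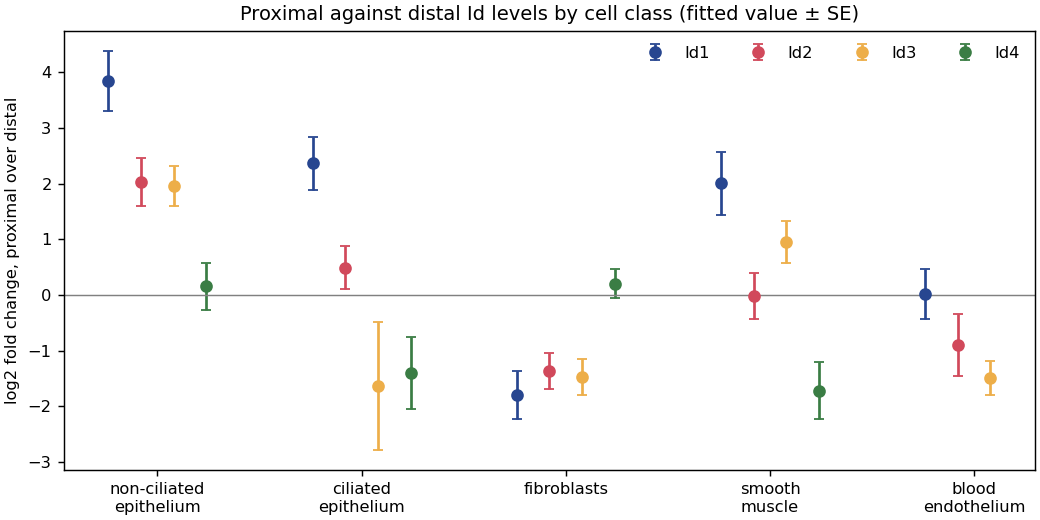
Fitted log2 fold change of each Id gene, proximal over distal (y axis), in 5 cell classes (x axis); points are edgeR values and bars their standard errors, and Id4 of blood endothelium could not be fitted. Id1 is at 3.84 in non-ciliated epithelium and at -1.80 in fibroblasts.

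T and NK cells, which played no part in choosing the genes, allow a test. Id2 was 601, 1004 and 789 CPM in distal 1, 2 and 3 and 877, 93.8 and 425 CPM in proximal 2, 3 and 4, the 93.8 resting on 1 UMI. Its log2 fold change was -0.55 ± 0.51 (SE, adjusted p = 0.725 by edgeR over 2560 genes). It was -1.39 ± 0.49 without proximal 2 (adjusted p = 0.163 by edgeR), -0.37 without distal 2 and -0.26 without proximal 3. The value of Id3 was -1.30 ± 0.59 (SE, adjusted p = 0.388 by edgeR), or -0.66 without proximal 2. Neither differed beyond the spread between libraries, in a class where 9 genes were called (0.352%).

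The partners of the Id proteins were tested over all genes of each class. The E proteins Tcf3, Tcf4 and Tcf12 did not pass in either epithelial class, in fibroblasts or in blood endothelium. In non-ciliated epithelium their log2 fold changes were 0.44 ± 0.35, 0.30 ± 0.58 and -0.33 ± 0.50 (SE). In smooth muscle Tcf4 fell by 1.47 ± 0.45 (SE, adjusted p = 0.0133 by edgeR), from 514, 515 and 542 CPM in distal 1, 2 and 3 to 236 CPM (4 UMIs) and 264 CPM (16 UMIs) in proximal 3 and 4. The Tcf4 value was -2.30 without proximal 4, and 1 of 5 fits that left out a library called it. Of 21 E proteins and other helix-loop-helix genes, 13 were tested in non-ciliated epithelium and none passed, where 2.83% of all genes tested did. In smooth muscle 3 of 13 rose and 2 fell, where 4.73% of all genes tested rose and 8.25% fell. Heyl (log2 fold change 4.27 ± 0.67), Bhlhe40 (2.02 ± 0.39) and Hes1 (1.85 ± 0.34), all repressors of transcription, rose, with Hes1 at 1.16 and Bhlhe40 at 1.31 without proximal 4, and Lyl1 fell with 0 proximal UMIs, at least 1.26-fold lower when 3 UMIs over the group are taken as the floor. In fibroblasts Heyl was the only 1 of 17 to pass, with -1.75 ± 0.40, where 2.8% of all genes tested passed.

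The BMP pathway was followed by 5 lists of ligands, receptors, Smads, inhibitors and target genes. No receptor or Smad of these lists passed in any class. In non-ciliated epithelium 2 of 8 tested target genes rose: the transcription factor Gata2, from 0.919, 0.399 and 1.52 CPM in distal 1, 2 and 3 to 13.9, 29.7 and 35.2 CPM in proximal 2, 3 and 4 (log2 fold change 4.51 ± 0.52 (SE), adjusted p = 0.00575 by edgeR), and Msx1, a homeobox gene (2.68 ± 0.55, adjusted p = 0.0334 by edgeR). Over all 12294 genes 2.26% rose. The target list's median was 0.93 against -0.05 over all of these genes. In ciliated epithelium it was -0.57 against -0.26 over all genes, and in smooth muscle -1.59 against -0.50. In blood endothelium it was 0.53 against -0.06. The medians of these 3 classes rest on 7, 8 and 6 tested genes, and their relation to the Id values was not tested. Smad7, an inhibitory Smad of the same list, was at 0.94 ± 0.49 and did not pass. The ligand gene Bmp3 (-2.64 ± 0.57) and the secreted antagonist gene Nbl1 (-2.22 ± 0.41) fell in non-ciliated epithelium. They were 1 of 2 ligand genes and 1 of 5 inhibitor genes tested, where 0.569% of all genes fell. Of the 5 list calls of this class, the heat shock gene Hspa1b included, 4 could be fitted without clusters 23 and 27, at -1.48 for Bmp3, -1.64 for Nbl1, 0.26 for Msx1 and 1.62 for Hspa1b. As no gene of any kind was called in that fit, the loss of these calls says nothing of the 4 genes.

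In fibroblasts the target gene Runx1 fell (-2.42 ± 0.48 (SE), adjusted p = 0.0287 by edgeR) and the list's median was -0.29 against -0.03 over all genes. The antagonist genes Fst (-3.51 ± 0.41) and Nbl1 (-1.495 ± 0.32) fell, as did Gdf10 (-1.88 ± 0.37) of the ligand list. They were 2 of 9 inhibitor genes and 1 of 8 ligand genes tested, and none of either list rose. Over all genes tested in fibroblasts 0.844% fell. Nbl1 also fell in smooth muscle (-2.27 ± 0.48), with 541, 752 and 764 CPM distally and 177 CPM (3 UMIs) and 198 CPM (12 UMIs) proximally. In smooth muscle the ligand gene Gdf11 rose (2.82 ± 0.71), with 0.88 without proximal 3 and 3.84 without proximal 4. Gdf10 had 1 proximal UMI, a pooled ratio of 0.151 with a 95% counting interval of 0.00382 to 0.845, and Gata2 had 2 proximal UMIs, a ratio of 0.189 with an interval of 0.0229 to 0.686.

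Immediate early and dissociation genes were counted against the share called over all genes, 13.0% in smooth muscle, 8.64% in blood endothelium, 2.83% in non-ciliated epithelium and 2.8% in fibroblasts. In smooth muscle 6 of 26 rose, led by Nr4a1 (2.09 ± 0.35), Nr4a2 (1.74 ± 0.34), Egr1 (1.62 ± 0.36) and Fosb (1.19 ± 0.35), and 2 fell, Ier5 and Hspa1a. Without proximal 4, Egr1 was at 0.83 and Nr4a2 at 0.71. In blood endothelium 5 of 24 rose, among them Hspa8 (2.02 ± 0.45), Ier3 (1.21 ± 0.32), Socs3 (1.11 ± 0.26) and Nr4a2 (1.05 ± 0.27). Hspa8 was at 1.06 without proximal 3 and Socs3 at 0.65 without proximal 4. In non-ciliated epithelium 1 of 27 rose, Hspa1b (2.85 ± 0.62, or 1.86 without proximal 4), and in fibroblasts Hspa1b rose (1.90 ± 0.37) while Ier5 (-1.47 ± 0.30) and Klf2 (-1.33 ± 0.30) fell. Of the 35 calls of list genes over the 5 classes, the number still past the threshold was 11 when distal 1 was left out, 20 for distal 2, 18 for distal 3, 13 for proximal 3 and 10 for proximal 4, where Klf6 (-0.45) and Zfp36 (-0.18) of smooth muscle changed sign.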

How the data were processed

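Libraries were 10x Genomics Single Cell 3' v2, and the deposited matrices hold UMI counts per gene and barcode, 1 matrix per library. Cell Ranger is given as 6.1.2, with mm39, per the submitters' processing notes, but as 7.0.0 per the file headers. The members and gene lists were chosen with earlier results of these data known. Barcodes with at least 500 UMIs, 250 genes and at most 20% mitochondrial UMIs were kept, 818 predicted doublets (4.24%) were removed, and cells were clustered (leidenalg 0.10.2, 2000 variable genes, 30 components, resolution 1, no integration). A cluster was named when its score reached 1.5 with at least 3 markers in 20% of cells. No name was given where another class had more markers among the cluster's 10 leading genes. The same held for clusters of low depth with no marker of their own class among these genes. UMIs were summed per class and library and tested with edgeR 4.0.16 (quasi-likelihood test, TMM, filterByExpr, Benjamini-Hochberg) in R 4.3.3, with DESeq2 1.42.0 as an alternative. Since nothing says that pools hold separate mice, p-values measure only the spread between libraries. On simulated data for non-ciliated epithelium (12294 genes), 38% of log2 changes of 2 and 75% of those of 3 were recovered, with 3 false calls. For fibroblasts (13738 genes) the shares were 85% and 88%, with 27 false calls. List genes were named when past the threshold, at most 4 per direction, list and class. Of 104 listed symbols 103 were matched, as were RefSeq promoters of 3 of the 4 Id genes.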

Additional observations from a re-analysis of the deposited data

Results flagged for a closer look

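Id1, Id2 and Id3 differed between the regions in opposite directions in different cell classes, with every proximal library above every distal one in 1 class and below in the other. These differences between classes were not tested, and the classes of a library share its mice and its digestion. Each value is the difference of the proximal over distal log2 fold changes of 2 classes. For Id1 it was 5.64 between non-ciliated epithelium and fibroblasts, 4.16 between ciliated epithelium and fibroblasts, and 3.8 between smooth muscle and fibroblasts. For Id2 it was 3.39 between non-ciliated epithelium and fibroblasts and 1.85 between ciliated epithelium and fibroblasts. For Id3, non-ciliated epithelium stood above fibroblasts by 3.44, blood endothelium by 3.45 and ciliated epithelium by 3.59. Smooth muscle stood above the same 3 classes by 2.43, 2.45 and 2.59. Within muscle cluster 20, which held most proximal muscle cells, Id3 was instead lower over proximal than over distal cells. The values with ciliated epithelium rest on 1 proximal UMI of Id3, and those of muscle and endothelium on 2 proximal libraries.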

How the results depend on the processing

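Over all alternatives run, Id1 and Id2 kept their sign in 18 of 18 for non-ciliated epithelium and Id1, Id2 and Id3 in 16 of 16 for fibroblasts, while Id3 of non-ciliated epithelium reversed in 1 of 17, to -1.76 without clusters 23 and 27. Other Id values changed sign as well: Id2 of smooth muscle in 5 of 12 alternatives (-1.55 to 0.42), Id1 of blood endothelium in 4 of 12 (-1.90 to 0.52), Id4 of non-ciliated epithelium in 4 of 18 and Id4 of fibroblasts in 1 of 16. Without clusters 23 and 27 edgeR called 0 genes and 0 Id genes, and 1022 had an unadjusted p under 0.05. Leaving out 1 library, Klf6 of smooth muscle ranged from -0.45 to 1.42 and Zfp36 from -0.18 to 1.29, with both reversed without proximal 4. Where a value moved, the cause was not tested.

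Leaving out 1 library in turn, genes called ranged from 5 to 3679 in non-ciliated epithelium (348 with all libraries; Id genes 0 to 3), from 0 to 2 in ciliated epithelium (12; Id genes 0), from 44 to 1954 in fibroblasts (385; Id genes 0 to 3), from 206 to 1126 in smooth muscle (1222; Id genes 0 to 3), from 0 to 379 in blood endothelium (348; Id genes 0 to 1) and from 0 to 41 in T and NK cells (9). The highest counts of non-ciliated epithelium, fibroblasts and T and NK cells came without proximal 2. The counts of 0 came by edgeR without distal 2 in ciliated epithelium (1383 genes at an unadjusted p under 0.05), without distal 1 in blood endothelium (617) and without distal 1 in T and NK cells (237). Where 1 proximal library was left, it was assumed to vary like the others.

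In non-ciliated epithelium DESeq2 called 911 genes and no filter on low counts 1180. Distal sums thinned to proximal depth gave 79 (1.00% of genes tested, 2 Id genes, Id3 not passing). Cluster 5 alone gave 67 (1.14%) with 0 Id genes. In ciliated epithelium the counts were 481 with DESeq2 (3.64% of genes tested, 1 Id gene), 20 with library totals only and 595 with no filter (2.2%, 1 Id gene). Thinned distal sums gave 52 of 2550 genes tested, and no Id gene could be tested there. Doublets kept gave 134 (0.972%, 1 Id gene). With at most 10% mitochondrial UMIs edgeR called 0 (1822 at an unadjusted p under 0.05). In fibroblasts the counts were 1396 with no filter, 139 with thinned distal sums (1.61%, 0 Id genes) and 128 within cluster 2 (1.31%, 0 Id genes). Library totals only gave 0 Id genes, where 3.05% of all genes tested were called. In smooth muscle thinned distal sums gave 390 of only 808 genes tested (48.3%) and 1 of the 2 Id genes tested. No filter and doublets kept gave 1 Id gene each, where 4.7% and 9.56% of all genes tested were called. In T and NK cells DESeq2 called 33, no filter 62, doublets kept 73 and resolution 0.5 gave 16.

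The labels do not say what the library numbers mark, and the title and the description of distal 3 give different numbers. Libraries with 1 number thus share only that number. With the title number as a replicate block, 517 genes were called in non-ciliated epithelium, 512 in fibroblasts and 0 in T and NK cells (203 at an unadjusted p under 0.05 by edgeR). With the description number as a replicate block, the counts were 480, 588 and 21, and 150 in ciliated epithelium. The 3 Id genes of non-ciliated epithelium passed with either block. In fibroblasts 2 Id genes passed with and without a block but not the same ones: with either replicate block Id3, at -1.51 and -1.37, did not pass and Id1, at -2.02 and -1.91, did. A block could not be fitted in smooth muscle or blood endothelium, nor the title number in ciliated epithelium. Deviations of the 2 pairs sharing a title number correlated at 0.66 and 0.44 in non-ciliated epithelium and at 0.49 and 0.19 in fibroblasts. Distal 3 and proximal 4, which share only the description number, were at 0.53 and 0.07. The remaining pairs lay between -0.64 and 0.18 in non-ciliated epithelium and between -0.33 and 0.24 in fibroblasts.

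Depth limits the low levels. With cells thinned to 500 UMIs, mean distal levels were 14.7 CPM for Id3 in non-ciliated epithelium (16.9 unthinned), 10.5 CPM for Id3 in ciliated epithelium (14.9), 22.1 CPM for Id1 and 144 CPM for Id3 in smooth muscle (28.7 and 187), and 8.77 CPM for Id4 in blood endothelium (14.7).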
